A study of Mus musculus with 28 samples.

Results

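H3K27ac peaks of c-Kit+ spermatogonia were compared between Scml2 knockout (KO) and wild-type (WT) mice. The comparison rests on 4 of the 28 libraries of the series, 2 KO and 2 WT, taken by their labels, and the other libraries serve as background. All 4 came from testes of C57BL/6 mice at postnatal day 7, and by the labels only the Scml2 genotype differed between the groups. Germ cells were obtained by magnetic sorting or by sedimentation (STA-PUT), and the mark was profiled by ChIPmentation, in which the transposase Tn5 adds the sequencing adapters to immunoprecipitated chromatin. Thy1+ spermatogonia of the same age and genotypes, pachytene spermatocytes (PS) and round spermatids (RS) of adult KO mice, and 16 Input libraries without immunoprecipitation were used for reference. The Scml2 allele, the number of animals per library and whether the replicates came from separate animals are not given in the sources used here, so p-values measure only the spread between these libraries, which may be technical. Overlapping peaks of the 4 libraries were merged into 46215 regions, 764 of which overlapped an Input peak and were removed. Fold enrichment is the height of a peak relative to the genome-wide background of its library. Of the 45451 regions kept, 11117 had a peak in every library and entered the test of fold enrichment, and a region without a peak in a library is described as not called there.

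SCML2 is a Polycomb-group protein of the male germ line, encoded on the X chromosome, and takes part in silencing genes as spermatogonia progress towards meiosis. c-Kit, the receptor of Kit ligand, marks spermatogonia that have begun to differentiate, whereas Thy1 enriches undifferentiated ones. H3K27ac, an acetylation of histone H3, accompanies active promoters and enhancers. The same residue carries the methylation that Polycomb repressive complex 2 places, so the 2 marks exclude each other on 1 histone tail.

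Selected promoters are shown as RefSeq windows of 300 bases around an annotated start (GRCm38.p6, the build the peak tables use as mm10). The start nearest the highest summit was taken. A window can therefore lie inside its gene and need not be the main promoter, as may hold for E2f1. Rbm38 and Mob3c had the lowest KO to WT change, Cog3 was among the highest, and Dnmt3b, E2f1 and Ezh2 were 3 of the 4 members of the gene lists at an unadjusted p under 0.05. This choice was made after the values were seen. The windows lie at chr2:173021652-173021951 (plus strand) for Rbm38, chr4:115827830-115828129 (plus) for Mob3c, chr14:75754444-75754743 (minus) for Cog3, chr2:153649199-153649498 (plus) for Dnmt3b, chr2:154569377-154569676 (minus) for E2f1 and chr6:47594981-47595280 (minus) for Ezh2. Each is written from 5′ to 3′ on the strand of its gene.
Rbm38: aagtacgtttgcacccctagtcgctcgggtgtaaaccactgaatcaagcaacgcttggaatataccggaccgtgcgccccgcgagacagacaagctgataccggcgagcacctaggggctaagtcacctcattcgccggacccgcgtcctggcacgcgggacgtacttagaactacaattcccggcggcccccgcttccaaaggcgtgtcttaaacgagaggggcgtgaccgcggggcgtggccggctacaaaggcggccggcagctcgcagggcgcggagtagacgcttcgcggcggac
Mob3c: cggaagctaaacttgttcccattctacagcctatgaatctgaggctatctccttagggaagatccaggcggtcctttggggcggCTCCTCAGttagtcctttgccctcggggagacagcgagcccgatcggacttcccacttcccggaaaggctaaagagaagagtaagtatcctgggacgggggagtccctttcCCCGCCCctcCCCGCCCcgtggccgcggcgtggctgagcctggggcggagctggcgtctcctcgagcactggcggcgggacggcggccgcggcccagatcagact
Cog3: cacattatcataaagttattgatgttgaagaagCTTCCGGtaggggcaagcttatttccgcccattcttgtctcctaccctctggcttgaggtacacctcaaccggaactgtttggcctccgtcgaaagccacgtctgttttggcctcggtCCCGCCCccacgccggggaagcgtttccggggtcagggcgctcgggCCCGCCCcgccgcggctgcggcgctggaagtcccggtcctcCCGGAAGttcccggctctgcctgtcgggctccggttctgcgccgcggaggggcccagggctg
Dnmt3b: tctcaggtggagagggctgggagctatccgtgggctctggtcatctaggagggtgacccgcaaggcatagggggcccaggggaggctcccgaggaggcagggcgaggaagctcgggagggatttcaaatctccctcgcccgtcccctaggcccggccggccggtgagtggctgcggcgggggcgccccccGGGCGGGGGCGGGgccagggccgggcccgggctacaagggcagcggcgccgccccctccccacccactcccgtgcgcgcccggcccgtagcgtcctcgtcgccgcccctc
E2f1: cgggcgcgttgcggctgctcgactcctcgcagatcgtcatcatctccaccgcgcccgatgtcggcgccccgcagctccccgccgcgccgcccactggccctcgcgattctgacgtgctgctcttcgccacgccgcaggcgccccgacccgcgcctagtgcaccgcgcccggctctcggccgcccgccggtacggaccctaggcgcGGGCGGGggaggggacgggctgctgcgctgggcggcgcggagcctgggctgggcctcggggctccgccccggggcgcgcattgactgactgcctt
Ezh2: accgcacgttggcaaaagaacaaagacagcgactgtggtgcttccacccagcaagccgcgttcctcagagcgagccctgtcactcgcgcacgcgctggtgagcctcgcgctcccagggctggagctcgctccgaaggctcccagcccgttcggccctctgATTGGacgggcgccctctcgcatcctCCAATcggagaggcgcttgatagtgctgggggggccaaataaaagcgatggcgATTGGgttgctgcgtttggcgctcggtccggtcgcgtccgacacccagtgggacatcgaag
Capitals mark exact matches, on either strand, to 8 motifs: the GC box (GGGCGGG), the CCAAT box (CCAAT), the TATA box (TATAAA), the ETS core (CCGGAAG), the E-box (CACGTG), the cyclic AMP response element (TGACGTCA), the palindromic NRF1 site and the motif known for STRA8 (CNCCTCAG). Dnmt3b held 2 GC boxes that overlap by a base, E2f1 held 1, Mob3c held 2 beside 1 STRA8 motif, Cog3 held 2 beside 2 ETS cores, and Ezh2 held 3 CCAAT boxes. None of the 8 motifs occurred in the Rbm38 window, which had 37 CpG dinucleotides and 63.7% G and C. Among 32851 RefSeq promoter windows of this length, 25.6% held a GC box, 37.4% a CCAAT box, 13.6% a TATA box, 8.86% an ETS core, 7.15% an E-box, 1.79% a cyclic AMP response element, 0.971% an NRF1 site and 7.94% a STRA8 motif. The matches are letters in a sequence and show no binding. At Rbm38, Mob3c and Cog3 the summits of all 4 libraries lay downstream of the window. At Rbm38 the peaks of WT replicate 2 and KO replicate 2 did not reach the window, and at Cog3 the peak of KO replicate 2 did not.

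The libraries differed more by replicate than by genotype. Peak numbers after removal of Input peaks were 29305 and 19307 in WT replicates 1 and 2, and 35779 and 22534 in KO replicates 1 and 2. The read depth is unknown. The background height against which each fold enrichment was set, a relative indicator of depth, was 0.754 and 0.613 in WT and 1.11 and 0.715 in KO, so KO replicate 1 had both the highest background and the most peaks. The lowest peak listed had a pileup height of 6 in KO replicate 1 and 5 in the other 3 libraries. The mean log2 peak number was 0.26 higher in KO, a ratio of 1.19, which was within the spread of the replicates (SD 0.43 for WT and 0.47 for KO on the log2 scale, n = 2 each, 2-sided exact permutation test, p = 0.667). With 2 libraries a group this test cannot give a p below 0.333, and the adjusted p over the 3 library-level tests was 0.667 for each. The difference turned to -0.05 without WT replicate 2 and to -0.08 without KO replicate 1.

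Promoters held nearly the same number of peaks in every library, and introns did not. WT replicates 1 and 2 had 14010 and 12844 promoter peaks and KO replicates 1 and 2 had 14219 and 13381, whereas intronic peaks numbered 8203 and 3182 in WT and 12232 and 4983 in KO. The promoter share averaged 57.2% ± 13.2 over the WT libraries and 49.6% ± 13.9 over the KO libraries (SD, n = 2 each), a difference below the spread (2-sided exact permutation test, p = 0.667). It changed sign without WT replicate 2, to 1.75 percentage points, and without KO replicate 1, to 2.22 points. Intronic peaks made up 28.0% and 16.5% of peaks in WT and 34.2% and 22.1% in KO, so the groups overlapped. Their median fold enrichment was 4.56 and 4.96 in WT and 4.26 and 4.66 in KO, near the lowest values the tables list (3.42, 3.72, 3.31 and 3.50 in the same order), against 7.41, 6.82, 8.04 and 6.41 at promoters.

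**Figure D1:**
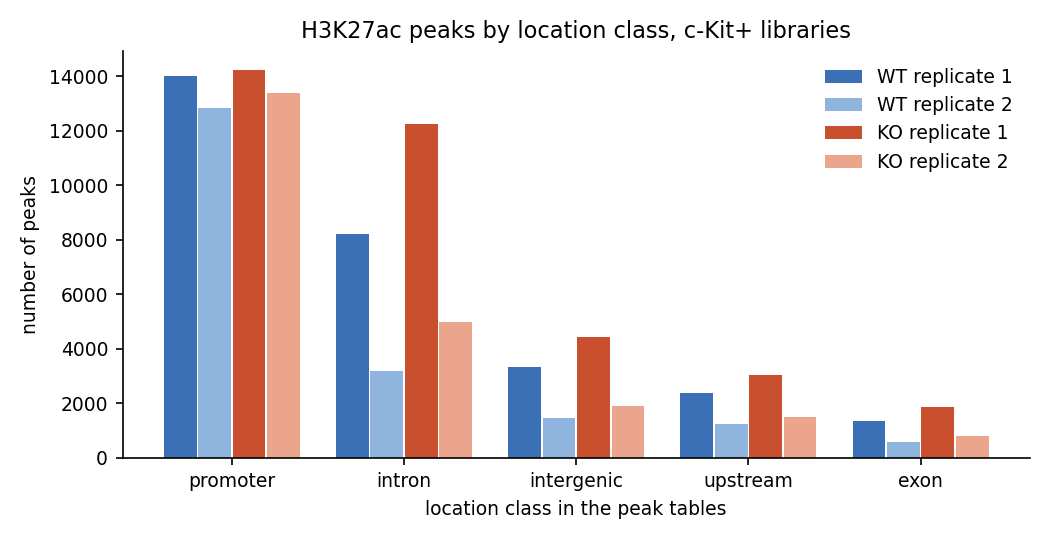
Number of H3K27ac peaks (vertical axis) in each location class of the peak tables (horizontal axis), with 1 bar per c-Kit+ library after removal of Input peaks. Promoter peaks range from 12844 to 14219, whereas intronic peaks range from 3182 in WT replicate 2 to 12232 in KO replicate 1.

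The X chromosome, which carries Scml2, held a smaller share of peaks in both KO libraries. Of all peaks, 583 (1.99%) and 398 (2.06%) were X-linked in WT and 637 (1.78%) and 421 (1.87%) in KO, and the groups did not overlap. The difference of -0.20 percentage points gave the smallest p the design allows (2-sided exact permutation test, p = 0.333, adjusted p = 0.667) and the groups overlapped, at -0.11 points, when peaks below a fold of 5 were left out, at -0.17 points with the same number of peaks from each library, and at -0.13 points as a share of the covered length. At the 238 tested X-linked regions the median log2 KO to WT change was -0.10, against -0.07 at 10874 autosomal regions. At an unadjusted p under 0.05 in limma, 5 X-linked regions (2.10%) were higher and 14 (5.88%) lower. The autosomal shares were 1.18% and 3.65%, and a difference between these shares was not tested. At the Scml2 promoter itself (X chromosome, 161163096 to 161163266) a peak was called in KO replicate 1 alone, with a fold enrichment of 4.26. The mark at the start of the gene therefore gives no check of the genotype labels.

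Marker promoters were read next, since sorted testis cells can carry other cell types. In such bulk libraries, fewer cells with the mark and less of the mark per cell cannot be told apart. Kit, the defining marker, had a promoter peak in every library, with fold enrichments of 8.55 and 6.20 in WT and 8.99 and 4.66 in KO, and overlapping groups (log2 change -0.24, SE 0.24, limma adjusted p = 0.945). Its change was 0.06 without KO replicate 2. Of the 9 promoters of differentiating spermatogonia, Kit, Rarg and Dnmt3b were called in all 4 libraries, Stra8, Sohlh1 and Sall4 in KO replicate 1 alone and Ccnd2 in KO replicate 2 alone, whereas Sohlh2 and Dmrtb1 were not called in any. Among germ cell genes, Dazl, an RNA-binding protein needed for germ cell development, was called in every library (7.98 and 5.58 in WT, 8.51 and 5.83 in KO), and the helicase gene Ddx4 was called in KO replicate 1 alone (5.20). Promoters of Sertoli and Leydig cell genes were also marked: Gata4 had 12.0 and 11.8 in WT and 12.8 and 9.91 in KO, Inha 12.5 and 11.8 against 14.2 and 8.16, and Nr2f2 10.3 and 9.30 against 9.46 and 7.00. Clu, Nr5a1, Kitl, Star, Lhcgr and the peritubular myoid cell genes Pdgfra and Tcf21 were also called in every library. Sox9 and Cyp11a1 were called in all but KO replicate 2. None of the 6 macrophage and 7 endothelial promoters was called in any library. Several other somatic markers were called in 1 library or none: Amh and Wt1 in WT replicate 1 alone, Fshr and Insl3 in KO replicate 1 alone, and Cyp17a1, Hsd3b1, Hsd17b3, Cldn11 and Dhh nowhere.

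Over all 40 measured promoters of the 5 somatic lists, 22 were not called in any library and 10 (25%) were called in all 4. Of all measured gene promoters, 35.2% were not called and 50.6% were called in all 4. Of the 40, 15 (37.5%) and 12 (30%) were called in WT replicates 1 and 2, and 16 (40%) and 10 (25%) in KO replicates 1 and 2. The shares of all 17923 measured gene promoters were 59.8%, 53.6%, 61.3% and 54.3% in the same order of libraries. The somatic promoters had summed fold enrichments of 113 and 89.3 in WT and 128 and 71.7 in KO. The 58 measured promoters of the 4 germ cell lists (differentiating spermatogonia, germ cell identity, stem and progenitor spermatogonia, and meiotic entry and prophase) behaved differently in 1 library. Of these, 18 (31.0%) and 14 (24.1%) were called in WT and 33 (56.9%) and 14 (24.1%) in KO replicates 1 and 2, with summed fold enrichments of 129, 93.6, 214 and 94.4 in the same order. All 4 libraries called 12 (20.7%) of the 58. KO replicate 1 was the sole library with a peak at 16 of them (27.6%), against 586 of the 17923 gene promoters measured (3.27%). These 16 included the synaptonemal complex genes Sycp2, Sycp3 and Syce1, the recombination genes Spo11, Dmc1, Meiob and Msh4, the cohesin gene Stag3, and the stem cell transcription factors Id4, Zbtb16 and Bcl6b. KO replicate 2 called the same number of germ cell promoters as WT replicate 2, so the 2 KO libraries did not share this pattern. It moved with the library of the highest background height, and the part of depth in it was not tested.

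No region passed the adjusted threshold between KO and WT. In limma with Benjamini-Hochberg adjustment over 11117 regions, 0 (0%) had an adjusted p under 0.05, and the smallest adjusted p was 0.308. At an unadjusted p under 0.05, 133 regions (1.2%) were higher and 411 (3.7%) were lower in KO. After centring, the groups did not overlap at 1164 regions in the higher direction (10.5%) and 2637 in the lower (23.7%). Changes are log2 differences between libraries set to a common median, and the excess of lower values depended on the scaling: the higher direction made up 24.4% of the regions at an unadjusted p under 0.05, but 60.6% without centring and 54.0% with quantile normalization. It also moved with the choice of peaks, to 57.4% with the same number of strongest peaks from each library and 38.0% with fold enrichments of at least 5. The median change was -0.07, and it lay between -0.11 and -0.05 in all 5 location classes. A single region, at Rbm38, differed by more than a factor of 2.

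**Figure D2:**
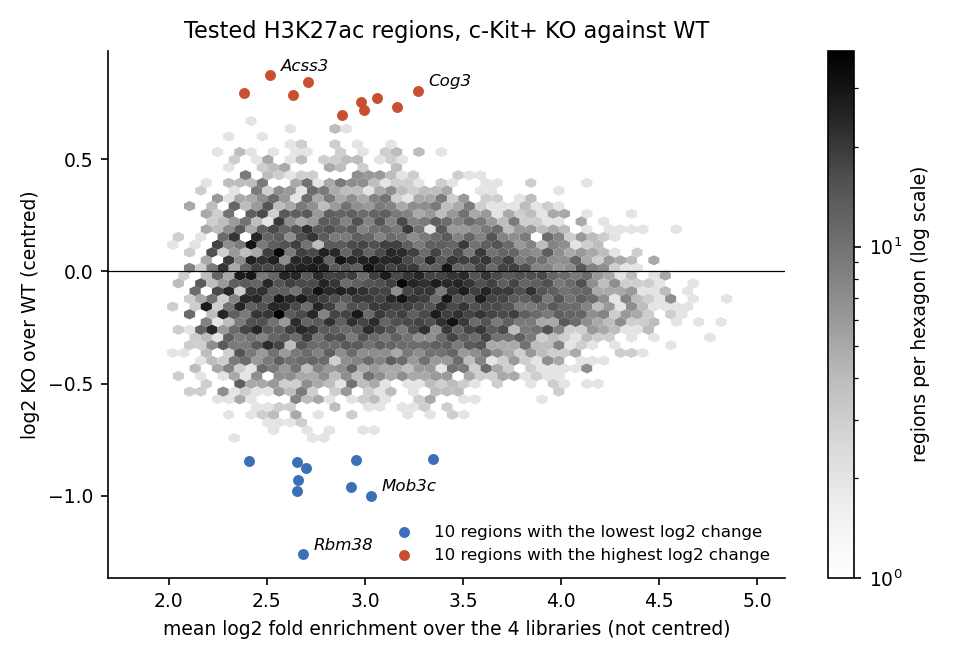
Log2 KO to WT change after centring (vertical axis) against mean log2 fold enrichment over the 4 libraries (horizontal axis) for 11117 regions, shaded by the number of regions per hexagon on a log scale. The 10 regions with the lowest and the 10 with the highest changes are coloured, from -1.26 at Rbm38 to 0.88 at Acss3.

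Rbm38 encodes an RNA-binding protein that is a target of p53 and regulates transcript stability. Its promoter region (chromosome 2, 173021804 to 173022681) had fold enrichments of 10.8 and 8.68 in WT and 5.20 and 3.50 in KO, and both KO libraries lay below both WT libraries. The value of KO replicate 2 was the lowest fold that library lists, so it lay at the calling limit. The log2 change was -1.26 (SE 0.21, 95% interval -1.72 to -0.80, limma adjusted p = 0.308). The adjusted p was 0.0241 when the 8 spermatogonial libraries shared 1 estimate of the spread and 0.0471 when a library's value was the mean over its peaks. The 4 peaks did not cover the same bases. The summits of WT replicates 1 and 2 lay at 173022103 and 173022108 and that of KO replicate 1 at 173022004, but the peak of KO replicate 2 ran from 173022405 to 173022675, beyond both WT peaks, and joined the region only through the wider peak of KO replicate 1. The region could therefore not be tested without KO replicate 1. In Thy1+ cells the same region had 5.24 and 4.22 in WT and 10.1 and 7.03 in KO, a centred log2 change of 0.35. The difference between the 2 cell types was -1.58 (SE 0.30, limma interaction term over 9424 regions, adjusted p = 0.112).

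The 10 lowest and 10 highest regions were chosen among those with an unadjusted p under 0.05 whose groups did not overlap, so their separation is a description. Among the other 9 lowest, the log2 change ran from -0.9998 to -0.84 and each had a limma adjusted p of 0.931. Mob3c, of the MOB family of kinase activators, had 13.7 and 9.30 in WT and 7.57 and 4.66 in KO. The promoter of the tetraspanin gene Tspan18 had 9.69 and 7.44 against 4.73 and 4.66, and that of the cyclin J-like gene Ccnjl had 9.12 and 8.06 against 5.20 and 4.66. Both KO values lay below both WT values at each of these promoters. Mmd differed in that KO replicate 1, at 8.99, was close to WT replicate 1, at 9.12, and the low value came from KO replicate 2, at 3.50. That was the lowest fold KO replicate 2 lists, and it was also its value at Gatsl2. The remaining regions lay at the promoters of Gatsl2 and the zinc finger gene Zfp689, in an intron of the kinase gene Stk35, upstream of Fam25c and Mmrn2, and upstream of Tmem173 and Ube2d2a. In 9 of the 10 lowest regions the highest peaks of the 4 libraries shared at least 1 base, Rbm38 being the exception, against 84.5% of all tested regions.

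At the upper end the log2 change ran from 0.70 to 0.88, again with limma adjusted p of 0.931. Cog3, a subunit of the complex that tethers vesicles at the Golgi, had 7.41 and 6.82 in WT and 12.8 and 13.4 in KO (log2 change 0.81, SE 0.23). Ext2, a subunit of the heparan sulfate polymerase, had 6.27 and 5.58 in WT and 11.8 and 9.33 in KO. Bud13, a splicing factor, had 5.70 and 8.06 against 14.2 and 9.91, and the kinase gene Stk30 had 3.42 and 4.34 against 7.09 and 7.00. The first of the list, the acyl-CoA synthetase gene Acss3, had 3.42 and 4.96 in WT and 10.9 and 5.83 in KO, so most of its difference came from KO replicate 1. The 3.42 of WT replicate 1 at Acss3 and Stk30 was the lowest fold that library lists. Acss3 and Stk30 were also the 2 of these 10 regions whose highest peaks shared no base in all 4 libraries. An intergenic region assigned to 1700110M21Rik had the closest replicates, with 6.27 and 6.20 in WT and 11.3 and 11.1 in KO. The others were a region upstream of the transcription factor gene Nfib, an intron of the protease gene Htra3, an exon of 4930526L06Rik and the promoter of 1810014B01Rik.

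**Figure D3:**
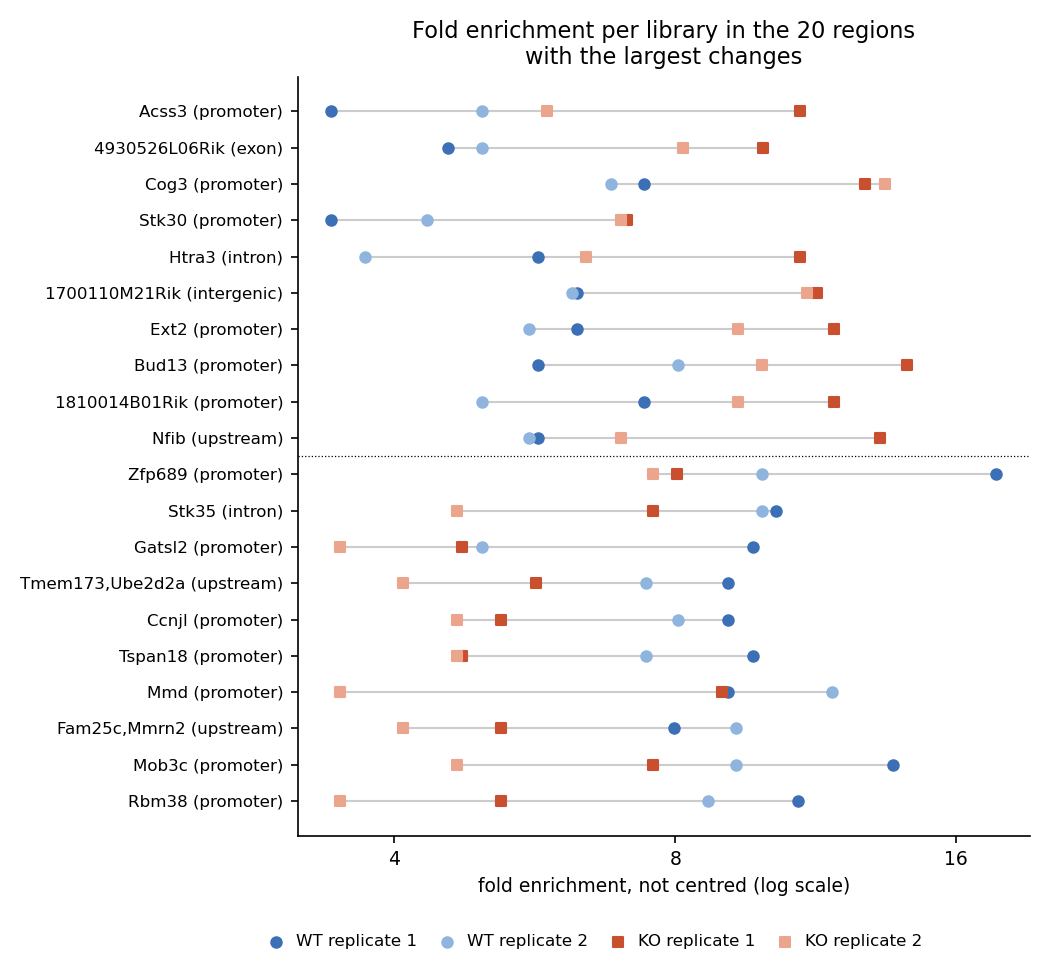
Fold enrichment before centring, on a log scale (horizontal axis), in each c-Kit+ library (circles WT, squares KO) at the 10 regions with the highest changes (above the dotted line) and the 10 with the lowest (below it). Both KO libraries lie on the same side of both WT libraries in all 20 regions, and this separation was required of the centred values to choose them. The spread between KO replicates is wide at Mmd, from 3.50 to 8.99, and narrow at Stk30, from 7.00 to 7.09.

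The gene lists showed few promoters with distinct values and none past the adjusted threshold. Across all 9067 gene promoters tested, 97 (1.07%) were higher and 313 (3.45%) were lower at an unadjusted p under 0.05, and the median log2 change was -0.07. In the lists, 4 promoters reached an unadjusted p under 0.05. They were 1 of 3 tested for differentiating spermatogonia and 1 of 18 for the cell cycle. The others were 1 of 13 for Polycomb repressive complex 2 and the H3K27 demethylases and 1 of 7 for retinoic acid. No tested promoter of the other lists did, so the 4 are described as single values and not as an excess over the share of all promoters. Dnmt3b, the de novo DNA methyltransferase that accompanies spermatogonial differentiation, had 6.27 and 5.58 in WT and 11.8 and 8.16 in KO (log2 change 0.66, SE 0.21). E2f1, a transcription factor of the cell cycle, had 7.41 and 7.44 in WT and 13.7 and 10.5 in KO (log2 change 0.62, SE 0.22). Ezh2, the catalytic subunit of Polycomb repressive complex 2, had 17.1 and 13.6 in WT and 12.3 and 10.5 in KO (log2 change -0.50, SE 0.21). Dhrs3, a retinaldehyde reductase that lowers retinoic acid, had 10.3 and 7.44 against 6.15 and 5.83 (log2 change -0.62, SE 0.22). In each of the 4 the groups did not overlap and the limma adjusted p was 0.931.

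The partners of SCML2 had no shared direction. Of 26 promoters of Polycomb repressive complex 1 and its partners, 24 were called and 19 tested. Their median log2 change was -0.06, with a range of -0.37 to 0.39, and the groups did not overlap at 4 in the higher direction and 7 in the lower, against 945 (10.4%) and 2199 (24.3%) of the 9067 gene promoters tested. The ends of that range were Bmi1, a subunit of the complex (10.3 and 8.06 in WT, 9.46 and 5.83 in KO), and Pcgf1, a paralog of it (5.70 and 5.58 in WT, 8.04 and 7.58 in KO). Of 14 promoters of Polycomb repressive complex 2 and the H3K27 demethylases, 13 were tested, with a median of -0.005, and Ezh2 was the one at an unadjusted p under 0.05. The 9 tested promoters of enzymes and readers of H3K27 acetylation had a median of -0.22, and none reached an unadjusted p under 0.05. In that list the acetyltransferase gene Crebbp had 18.8 and 14.3 in WT and 17.5 and 9.91 in KO, with a log2 change of -0.39 (SE 0.23). The 17 ribosomal protein promoters, taken as broadly active controls, were called in every library and had a median of -0.03.

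Cell cycle promoters held the one list member called in KO alone, that is in both KO libraries and no WT library. Ccnd1, the cyclin that drives entry into S phase, had 3.78 and 5.25 in KO replicates 1 and 2. The background for such a pattern was 69 of 17923 gene promoters (0.385%), with 43 (0.24%) in the opposite direction. Of 28 cell cycle promoters, 18 were tested, with a median log2 change of -0.05, and E2f1 was the one at an unadjusted p under 0.05. Of 16 retinoic acid promoters, 7 were tested, with a median of -0.16. The 50 developmental regulators, typical Polycomb targets in other cells, were mostly not called: 41 were not called in any library, against 6309 of the 17923 measured (35.2%), and the 9 others were called 8 and 5 times in WT and 7 and 4 times in KO. Of the 12 X-linked germ cell promoters, 1 was tested, and Taf7l and Nr0b1 were called in KO replicate 1 alone. Of the 22 promoters of spermatocytes and spermatids, 17 were not called in any library.

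**Figure D4:**
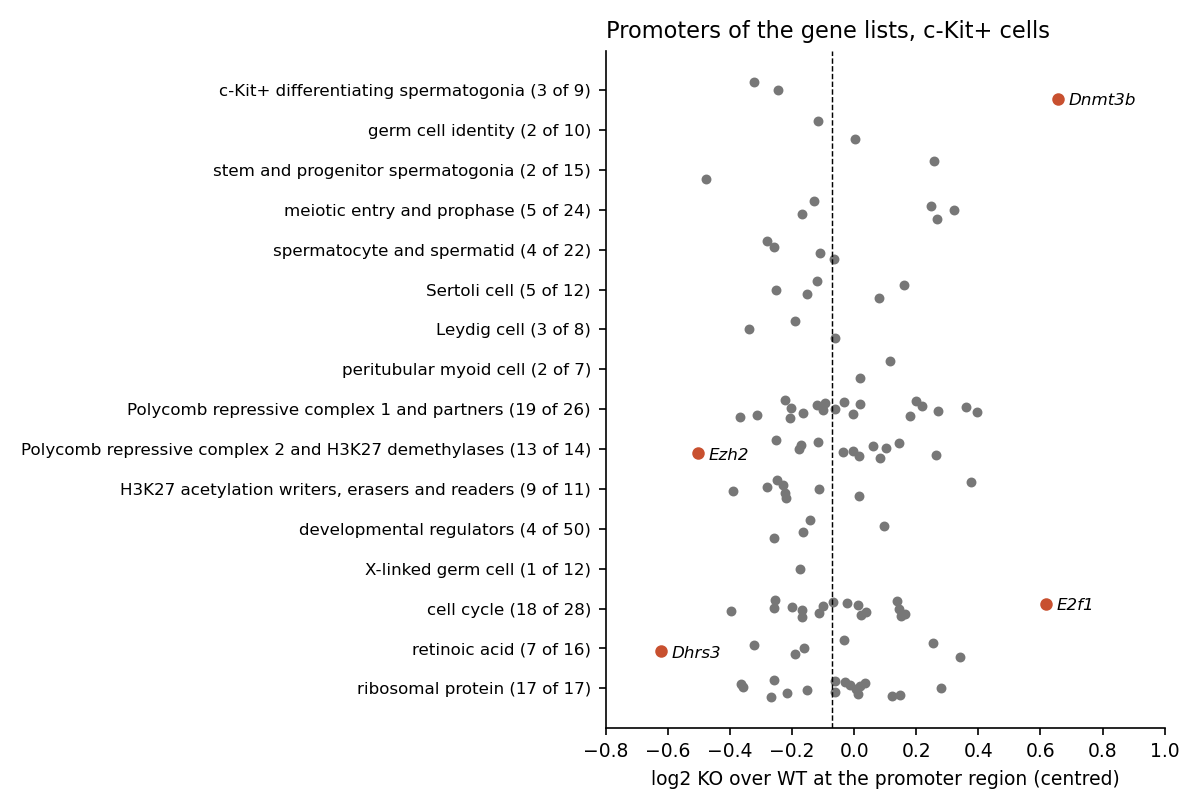
Centred log2 KO to WT change (horizontal axis) of each tested promoter, by gene list, with the number tested of those measured in brackets. The dashed line is the median of all 9067 gene promoters tested, and the 4 promoters at an unadjusted p under 0.05 are coloured and named, from -0.62 at Dhrs3 to 0.66 at Dnmt3b.

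Beyond the tested regions, 973 (2.14%) were called in KO alone and 279 (0.614%) in WT alone, in each case by both libraries of the genotype and none of the other. The counts moved with the peaks that entered: with the same number of strongest peaks from each library they were 515 and 411, and with fold enrichments of at least 5 they were 290 and 158. Without KO replicate 2, which leaves KO replicate 1, the KO count was 15055, and without WT replicate 2 the WT count was 7864. The lowest counts with a library left out were 1211 for KO and 382 for WT. Leaving a library out loosens the rule, to 1 call in its own genotype or to absence from 1 library for the other. These counts therefore rise largely by construction. Introns made up 55.3% of the KO set and 37.6% of the WT set, and promoters 14.8% and 29.0%, against 38.9% and 32.0% of all 45451 regions, so the WT set lay near that share. The intron shares of the KO and WT sets were 51.8% and 32.8% with the same number of peaks, and 42.4% and 24.1% with fold enrichments of at least 5, where promoters made up 32.1% and 45.6%. Regions called in KO replicate 1 alone had an intron share of 52.9%, those called in WT replicate 1 alone 47.4%. Most of these calls were weak, since the lower of the 2 fold enrichments had a median of 4.08 in the KO set and 4.34 in the WT set, with highest values of 6.62 and 6.20.

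The strongest regions called in KO alone were led by an intron of Ppp1r12b, a regulatory subunit of myosin phosphatase, with 6.62 and 7.58 in KO replicates 1 and 2. Introns of St5, with 6.62 and 7.00, and of Irs1, the insulin receptor substrate, with 7.09 and 6.41, came next. The 2 promoters among the first 10 were those of Txlnb (6.15 and 5.83) and BC022687 (7.57 and 5.83). An intron of the dynein subunit gene Dync1i1 (6.15 and 7.00) was not called in any of the other 8 H3K27ac libraries. The rest lay in an intron of Vav2, upstream of Igfbp6, Soat2 and Spryd3, and in intergenic stretches assigned to Eya4 and Gm14420. When peaks within 1000 bp were joined as well, Ppp1r12b, Irs1, BC022687, Vav2 and the Igfbp6 region had as many libraries called in WT as in KO, so WT peaks lay close by.

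The strongest regions called in WT alone were the promoter of Oacyl and an intergenic region 69693 bp downstream of a start of Dazl (chromosome 17, 50223724 to 50224164), both with 6.27 and 6.20 in WT. The Dazl region was not called in any of the other 8 H3K27ac libraries. The promoter of Map2, a microtubule-associated protein, came next with 5.70 and 6.20, and so did a region upstream of Trim71, an RNA-binding regulator of proliferation, with the same values. Promoters of Stx3, Zswim5 and Ltbp4 were in this list as well, beside introns of Lmna and Aqp12 and a region upstream of Gm6116. In Thy1+ cells the Map2 promoter was called in both genotypes, with 5.24 and 4.22 in WT and 7.09 and 5.12 in KO, and the Stx3 promoter had 8.91 and 9.65 in WT and 12.7 and 6.40 in KO. With peaks joined in the same way, the regions at Lmna and Ltbp4 no longer differed, and those at Dazl, Trim71, Zswim5, Gm6116 and Aqp12 differed by 1 library, whereas Oacyl, Map2 and Stx3 were still called in WT alone.

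Few of the one-genotype regions had a genotype pattern in Thy1+ cells. The 973 regions of the KO set were called in Thy1+ WT replicates 1 and 2 at 15.6% and 8.94% and in Thy1+ KO replicates 1 and 2 at 44.5% and 15.4%. The 279 regions of the WT set were called in the same 4 libraries at 25.1%, 19.0%, 63.4% and 31.9%, so the Thy1+ KO replicate 1 library called the most regions of both sets. Both Thy1+ KO libraries, with no Thy1+ WT library, called 47 of the 973 (4.83%) and 26 of the 279 (9.32%), against 227 of the 11117 tested regions (2.04%). The tested regions are an unlike background, since 85.4% of them were called in all 4 Thy1+ libraries. In adult KO cells the KO set was called at 61.9% and 58.1% in PS and 39.8% and 31.4% in RS, and the WT set at 73.5%, 72.8%, 57.0% and 43.7%. Regions of the WT set, not called in the c-Kit+ KO libraries, could thus be called in other KO cells. The matching shares over all 45451 regions are not given here. The 2 sets also differ in class, with promoters at 29.0% of the WT set and 14.8% of the KO set.

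**Figure D5:**
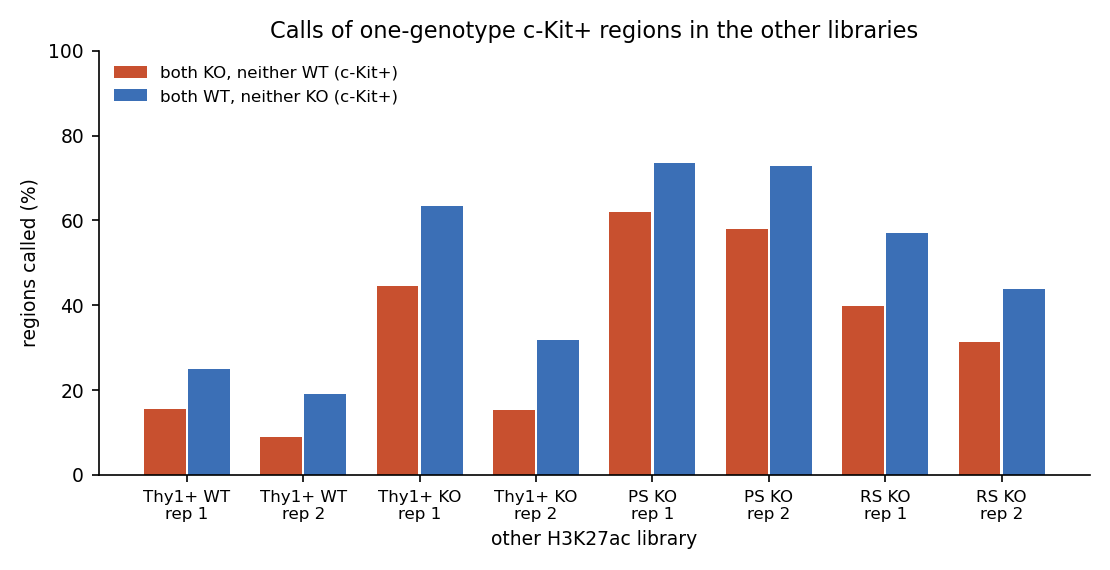
Percent of the 973 regions called in KO alone and of the 279 regions called in WT alone in c-Kit+ cells (vertical axis) that are called in each of the 8 other H3K27ac libraries (horizontal axis). The WT set is called more often than the KO set in all 8 libraries, including the 6 KO libraries. The share over all regions is not shown, and the WT set holds a larger share of promoters.

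The changes at tested regions were also read in Thy1+ cells. Across 9490 regions called in all 8 spermatogonial libraries, the c-Kit+ and Thy1+ changes had a correlation of 0.01 across regions, which are not independent replicates, and 50.5% lay on the same side of their medians. Of the 10 lowest c-Kit+ regions, 5 were below the Thy1+ median, and of the 10 highest, 4 were above it. At an unadjusted p under 0.05 in c-Kit+ cells, 69 of 108 higher regions (63.9%) and 151 of 343 lower regions (44.0%) lay on the same side in Thy1+ cells. The interaction term was past the adjusted threshold at 0 of 9424 regions (0%) in limma, with 170 higher and 245 lower in c-Kit+ at an unadjusted p under 0.05. Ext2 and Nfib had the largest positive interaction terms among the named regions, 1.24 (SE 0.31) and 1.22 (SE 0.34), each with a limma adjusted p of 0.987.

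The most enriched regions differed little between the genotypes. The promoter of Nr1d2, which encodes the circadian repressor REV-ERB beta, was highest in WT, with 30.2 and 34.7, and had 35.9 and 26.8 in KO. The region of Ino80d, a subunit of the INO80 chromatin remodeller, and its neighbour Gm11602 was highest in KO, with 35.5 and 30.9, against 31.4 and 26.7 in WT. The promoter of Rbm39, a splicing factor, had 27.4 and 21.1 in WT and 34.0 and 28.6 in KO (log2 change 0.30, SE 0.21, limma adjusted p = 0.932), so both KO libraries lay above both WT libraries. The promoters of Ino80 (33.6 and 26.0 in WT, 31.2 and 23.3 in KO) and of Epc1, a subunit of the NuA4 acetyltransferase complex (34.8 and 27.9 in WT, 31.7 and 25.7 in KO), were lower in both KO libraries after centring, with log2 changes of -0.21 (SE 0.21) and -0.20 (SE 0.21). Mfn2, a mitochondrial fusion protein, had 28.5 and 31.0 in WT and 29.3 and 26.2 in KO, with a log2 change of -0.17 (SE 0.23).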

How the data were processed

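The authors deposited 1 peak table per library; the submitters' processing notes name Bowtie, MACS2 and mm10 without versions. The deposited tables list a signal height per summit, a fold enrichment (a ratio) and −log10 p and q values, per the file headers. In the values, the fold equalled height plus 1 over background plus 1, with a background constant within a library, so it carries no local or Input correction.

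The highest summit stood for each peak, mitochondrial peaks were dropped, and peaks sharing 1 bp were merged. Each region took the highest fold of its peaks per library. Regions called in all 4 libraries were centred on the library median of log2 fold and fitted with limma 3.58.1 (R 4.3.3; Python 3.11.15, pandas 2.3.3). limma was tested on simulated data. Promoter values needed a summit within 1000 bp of a start listed for the gene alone.

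The members, gene lists and named-region rules were chosen with earlier results of these data known. Named regions were the 10 highest and 10 lowest changes with an unadjusted p under 0.05 and no group overlap, the 10 strongest called in 1 genotype per direction, the 5 most enriched per genotype, and list members called in 1 genotype or with an unadjusted p under 0.05. Promoter windows were printed in place of sequence around summits, as no genome was used here. Alternatives covered Input removal, peak strength and number, joining, centring, the spread model and each library left out.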

Additional observations from a re-analysis of the deposited data

How the results depend on the processing

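The count of regions past the adjusted threshold was 0 under every setting run except 3: 2 with the mean over peaks (Rbm38 at -1.25, adjusted p = 0.0471, and Ndst2, a heparan sulfate enzyme named after its values were seen, at -1.32, adjusted p = 0.0272, against -0.57 and 0.931 with the highest peak), 1 with the replicate block (Rbm38, adjusted p = 0.0052) and 1 with a spread shared by 8 libraries (Rbm38, adjusted p = 0.0241). Elsewhere the adjusted p of Rbm38 ranged from 0.102 to 0.999, and it dropped out with fold enrichments of at least 5, with the same number of peaks, and, after seeing the data, where the highest peaks had to share a base (9390 regions, smallest adjusted p = 0.874). The replicate numbers do not pair the samples by any label. After centring, which removes shifts of a whole library, same-numbered libraries deviated together with a correlation of 0.07 across regions. The replicate block changed no other call. At the library level, KO minus WT was close in replicates 1 and 2. It was 0.29 and 0.22 for log2 peak number, -8.07 and -7.14 points for the promoter share and -0.21 and -0.19 points for the X-linked share. Whether same-numbered libraries share a source was not tested.

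Regions called in KO alone numbered 290 with fold enrichments of at least 5 and 515 with the same number of peaks, and 1211 to 15055 with 1 library left out. Regions called in WT alone numbered 158 with fold enrichments of at least 5, 146 when peaks within 1000 bp were joined, and 382 to 7864 with 1 library left out. For both genotypes, leaving out a library loosens the rule, so those counts rise largely by construction. The log2 ratio of peak numbers was -0.0018 with the same number of peaks, as that setting's construction fixes, and -0.078 to 0.589 with 1 library left out. The promoter share differed by -17.4 to 2.22 points and the X-linked share by -0.25 to -0.16 points in the same series. The change at Kit ranged from -0.522 to 0.0575, the latter without KO replicate 2, and the cause was not tested. The interaction count was 0 under every setting run. Of 387 values of 26 single regions under alternatives, 382 kept their direction and their side of the threshold. Most of these regions were chosen because their groups did not overlap, and none passed the threshold in the main setting. The choice itself therefore favours this count. Read depth is unknown, so regions near the calling limit cannot be told apart from unmarked ones.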

Other observations

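Msi2, which encodes an RNA-binding protein of the Musashi family with known roles in stem cells and in the testis, held more regions called in KO alone than any other gene, and was looked at after its values were seen. Of 68 regions assigned to it on chromosome 11, between 88355761 and 88716892, 8 (11.8%) were called in KO alone and 0 had the opposite pattern. The share called in KO alone was 2.14% of all regions and 3.05% of intronic regions. All 8 lay in introns, with fold enrichments of 3.31 to 5.20 in KO replicate 1 and 3.50 to 5.83 in KO replicate 2. The number of its regions called was 27 and 6 in WT and 52 and 21 in KO replicates 1 and 2, and 44 were called in 1 library alone. In Thy1+ cells, 1 and 0 of the 8 were called in WT and 4 and 1 in KO. The 973 regions called in KO alone were called there at 15.6% and 8.94% in WT and 44.5% and 15.4% in KO. The 8 regions of Msi2 thus lay near the shares of that whole set. The 4 regions of Msi2 called in every c-Kit+ library had log2 changes between -0.27 and 0.08.

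Another 3 genes had 4 such regions each, also weak: Akt2 (4 of 19 regions), Nav2 (4 of 57) and Arid1b (4 of 52, with 1 in the opposite direction). KO replicate 1 called the most of their regions and WT replicate 2 the fewest, and the same 2 libraries had the most and fewest peaks in total. In the order named, 14, 41 and 38 regions were called in KO replicate 1 and 6, 14 and 12 in KO replicate 2. WT replicate 1 called 6, 23 and 19, and WT replicate 2 called 3, 6 and 6.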
